A study of Mus musculus with 82 samples.

Results

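Primary mouse hepatocytes of genotype AMPK alpha1-/- alpha2-/- (called dKO here), which lack the catalytic subunits of AMP-activated protein kinase, were exposed for 4 h to the AMPK activator 991 at 3 µM or to its vehicle, DMSO, and RNA levels were read on whole-genome mouse arrays from Affymetrix. These cells make up 19 of the 82 arrays of the study, taken by their labels as hepatocytes of this genotype with 991 or vehicle. They come from 2 preparations of cells of C57BL/6 background. Preparation 1 has 5 arrays with 991 and 4 with vehicle, after the submitters left out 1 vehicle array as an outlier, and preparation 2 has 5 and 5. Arrays within a preparation are technical replicates, so n = 2 preparations, which the labels call biological replicates without saying whether they came from separate animals. The cells had been isolated by collagenase perfusion and plated in serum with 10 nM insulin, 200 nM T3 and 100 nM dexamethasone. They were then kept overnight with 100 nM dexamethasone, which every group received. The rest of the study applies the same compounds to control hepatocytes (WT here) and to mouse embryonic fibroblasts (MEFs) of both genotypes, and AICAR, a precursor of an AMP mimic, to all of them. The comparison asks what 991 does to RNA levels when AMPK is missing, how large these changes are and whether they recur between preparations.

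AMPK is a kinase of a catalytic alpha, a scaffolding beta and a regulatory gamma subunit that is switched on when cellular ATP falls, and in the liver it restrains lipid synthesis. The compound 991 binds in a pocket between the alpha and beta subunits, so that cells without alpha subunits lack its known target. Pathways that a small molecule may change in hepatocytes include PPAR alpha, a nuclear receptor that fatty acids bind and that raises the genes of fatty acid oxidation. They also include the integrated stress response, in which phosphorylation of eIF2 alpha favours translation of the transcription factor ATF4, and the heat shock response, in which HSF1 raises chaperone genes.

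Values are log2 intensities, so a difference of 1 is a 2-fold change. Over the 19 arrays the medians lay between 6.30 and 6.34, and each array correlated with the others of its treatment and preparation at 0.9978 to 0.9991. Prkaa1, which encodes AMPK alpha1, lay at 4.33 to 4.83 on the 19 dKO arrays and at 4.93 to 5.93 on the 20 WT arrays with 991 or vehicle, with no overlap. Both ranges are below the median level of all genes over the hepatocyte arrays, 6.87, so the Prkaa1 probe set is dim in both genotypes. Prkaa2, which encodes AMPK alpha2, lay at 9.51 to 9.75 in dKO and 9.52 to 9.85 in WT, so its probe set did not separate the genotypes. Which part of the gene was deleted is not known here, and this probe set is no check of the label.

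At the level of the 2 preparations the effect of 991 without AMPK was small. A limma fit to preparation means, with the preparation as a block, called 1 of 18193 genes at a Benjamini-Hochberg adjusted p under 0.05 (0.0055%), and 819 genes had an unadjusted p under 0.05 (4.5%). In WT hepatocytes the same fit called 1105 genes (6.07%), 676 of them higher (3.72%) and 429 lower (2.36%). In the mean of the dKO preparations 5 genes differed by 1.5-fold or more (0.0275%), namely Rgs1, Fgf21, Klf10, Ehhadh and Ivl, all higher with 991, and Rgs1 and Klf10 did so in each preparation. The count of 1 depends on which means share the estimate of spread: it was 45 without the AICAR means and 781 on the 4 dKO means with 991 and vehicle alone, both settings chosen after seeing the data.

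Within a preparation the technical replicates were tight enough to resolve more changes. A limma fit to the arrays called 603 genes in preparation 1 (334 higher, 1.84%, and 269 lower, 1.48%, together 3.31%) and 566 in preparation 2 (270 higher, 1.48%, and 296 lower, 1.63%, together 3.11%). These p-values measure technical spread only, and variation between cultures of a preparation is not in them. In both preparations and in the same direction 250 genes were called (1.37% of genes), 133 of them higher (0.731%) and 117 lower (0.643%). Such genes are described below as having risen or fallen in both preparations. The 250 genes are 41.5% of the calls of preparation 1 and 44.2% of those of preparation 2. Their median size was 0.23, the rises had a median of 0.25 and the falls of -0.21. For 181 of them, 101 rises and 80 falls, no array with 991 overlapped an array with vehicle in either preparation, and over all genes that held for 278 (1.53%).

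Changes had the same sign in both preparations more often the larger they were. Across all 18193 genes, which are not independent replicates, changes in the 2 preparations correlated with r = 0.41 and rho = 0.32, and 62.1% of genes had the same sign. At or above the median level r was 0.61, and below it 0.21. Genes that differed by less than 0.1 in preparation 1 had the same sign in preparation 2 in 59.1% of cases, those that differed by 0.2 to 0.3 in 79.7%, and those that differed by 0.3 to 0.5 in 90.1%. All 22 genes that differed by 0.5 or more in preparation 1, and all 19 in preparation 2, had the same sign in the other preparation. The change in the other preparation was usually smaller, with a median of 0.37 among those 22 genes. The plot of changes in preparation 1 against preparation 2 marks the genes called in the same direction in both. Their shared sign follows from that selection.

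**Figure D1:**
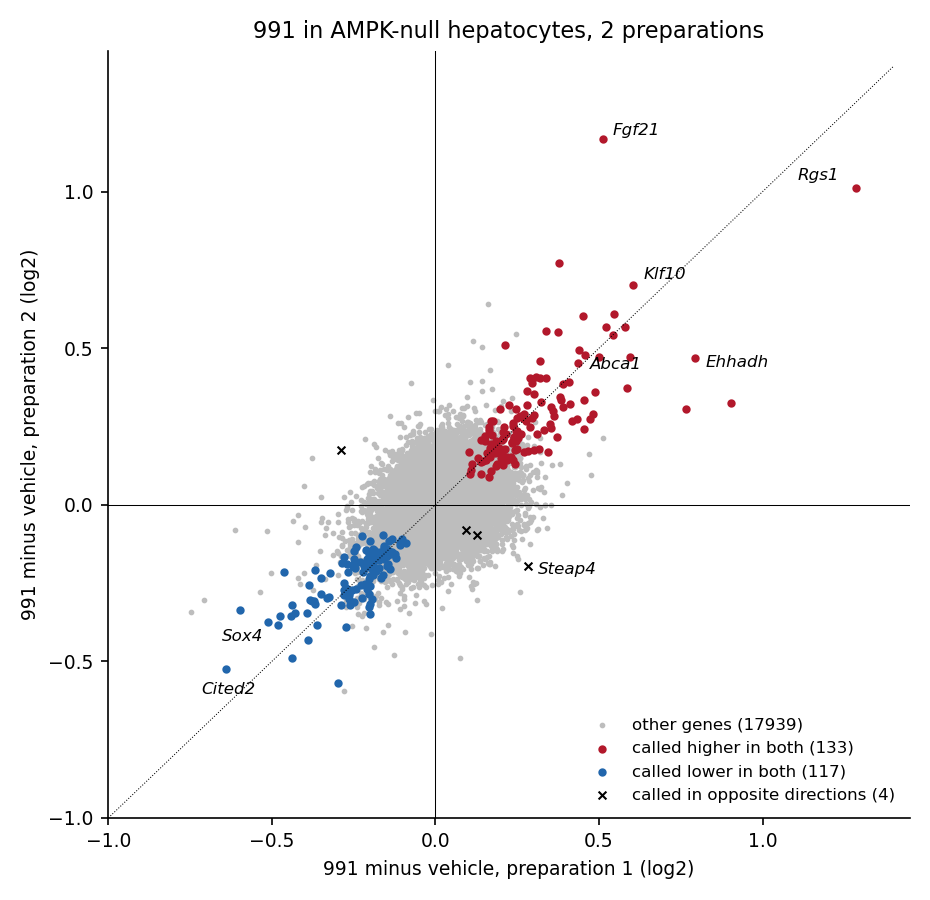
Each point is a gene, with its log2 change with 991 in dKO preparation 1 on the x axis and in preparation 2 on the y axis; red and blue points are the 133 genes called higher and the 117 called lower in both, and crosses the 4 called in opposite directions. Rgs1 (1.28 and 1.01) and Fgf21 (0.51 and 1.17) stand farthest from 0.

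Cited2 was the gene called on preparation means, and it fell. It encodes a coactivator-binding protein that limits HIF-1 activity and is under insulin and FOXO control in the liver. With vehicle it read 11.59, 11.63, 11.64 and 11.54 on the arrays of preparation 1 and 11.32, 11.32, 11.42, 11.34 and 11.45 on those of preparation 2. With 991 it read 10.95, 10.89, 11.02, 10.97 and 10.98 in preparation 1 and 10.88, 10.83, 10.83, 10.83 and 10.87 in preparation 2. Every array with 991 was lower than every array with vehicle, in both preparations. The change was -0.64 in preparation 1 and -0.52 in preparation 2. Its mean over the 2 preparations was -0.58 ± 0.06 (limma SE, with the spread taken from all 12 hepatocyte preparation means, limma adjusted p = 0.0145). The call was lost without preparation 1 (adjusted p = 0.271), without the preparation block (0.612), without an intensity trend in the spread (0.160), with genes below the median level left out (0.0617) and with the dKO means alone (0.0613).

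The largest rise was that of Rgs1, a regulator that speeds the switching-off of G protein signals. Its vehicle arrays read 6.98 to 7.20 in preparation 1 and 6.55 to 7.16 in preparation 2, and its arrays with 991 read 8.33 to 8.50 and 7.66 to 7.99. The groups did not overlap, and the level was 2.22-fold higher in the mean of the 2 preparations (1.15 ± 0.15, limma SE as for Cited2). In the fit to preparation means its adjusted p was 0.0619, short of the threshold, as it was for Ehhadh and Abca1. Klf10, an early transcription factor of TGF-beta signalling that is also glucose responsive, rose by 0.61 and 0.70 in preparations 1 and 2. Slc25a47, a mitochondrial carrier of the liver, rose by 0.58 and 0.57, although its vehicle level differed by 1.14 between the preparations. Hilpda, a lipid droplet protein that inhibits the lipase ATGL, rose by 0.55 and 0.61. Its arrays read 8.78 to 8.88 with vehicle and 9.32 to 9.41 with 991 in preparation 1, and 8.88 to 8.94 and 9.46 to 9.61 in preparation 2.

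Abca1, which exports cholesterol to apolipoprotein A-I, rose by 0.44 and 0.49, from 9.62 to 9.85 on the vehicle arrays of preparation 1 to 10.15 to 10.19 with 991. Cyp26a1, which breaks down retinoic acid, rose by 0.60 and 0.47. G0s2, another ATGL inhibitor, rose by 0.38 and 0.77, and Creb3l3, a membrane-bound liver transcription factor that induces Fgf21, by 0.48 and 0.29; both were picked after their values were seen.

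Among the falls at or above the median level, Sox4, a developmental transcription factor, changed by -0.47 and -0.35. Tsc22d3, the glucocorticoid-induced leucine zipper, changed by -0.39 and -0.43. Klf5 changed by -0.36 and -0.38, and its arrays, like those of Tent5a, overlapped in preparation 2 (6.73 to 7.12 with 991 against 7.08 to 7.45). Over the settings run, the mean change of Klf5 ranged from -0.41 to -0.16. The other named falls were Zfp697, Grk5, a kinase of G protein-coupled receptors, Cemip2, Akr1c14, Avpr1a, the vasopressin receptor of hepatocytes, and Tent5a, with mean changes between -0.39 and -0.34. None of these genes other than Cited2 was called on preparation means. A second probe set at or above the median level gave smaller falls for Sox4 (-0.17 and -0.09) and Tsc22d3 (-0.10 and -0.25).

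**Figure D2:**
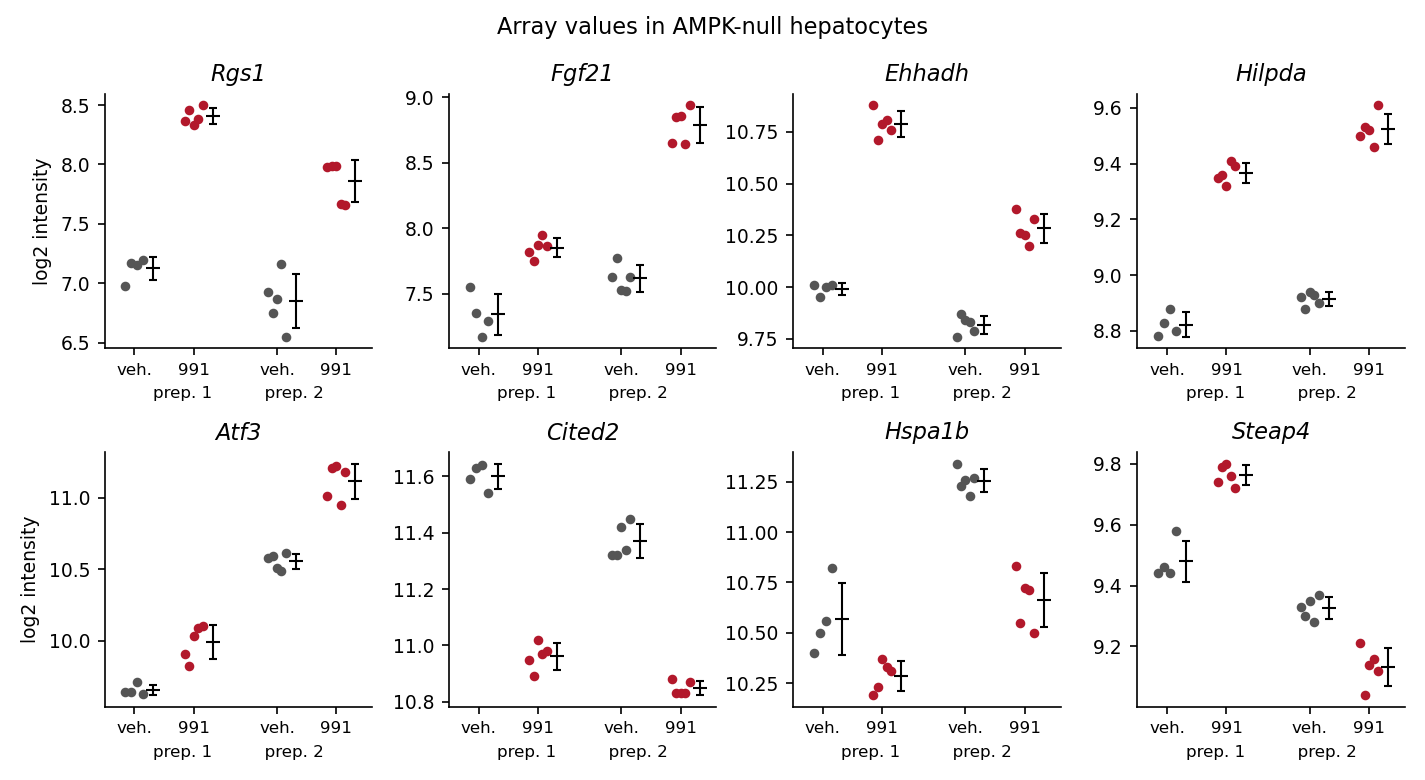
Log2 intensity of each dKO array for 8 genes, grey with vehicle and red with 991, by preparation; the bar beside each group is its mean ± SD (4 vehicle arrays in preparation 1, otherwise 5 arrays). Arrays with 991 and vehicle do not overlap for any of the 8, and Steap4 moves up in preparation 1 and down in preparation 2.

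Part of the list of PPAR alpha targets and fatty acid oxidation genes rose. Of 20 measured, 8 rose in both preparations and none fell in both, against 0.731% and 0.643% of all genes. The list's median change was 0.08, against 0.01 for all genes. Of the 20, 15 were positive in both preparations and 2 negative in both. The count was 8 under each of the 24 alternatives run for it except the mean of all probe sets, which gave 7.

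The enzyme with the clearest rise was Ehhadh, the peroxisomal bifunctional enzyme of beta-oxidation. Its vehicle arrays read 10.01, 9.95, 10.00 and 10.01 in preparation 1 and 9.76, 9.87, 9.84, 9.83 and 9.79 in preparation 2. With 991 they read 10.88, 10.71, 10.79, 10.81 and 10.76, and 10.38, 10.26, 10.25, 10.20 and 10.33. All arrays with 991 were above all vehicle arrays of their preparation, and the level was 1.55-fold higher in the mean. The rise was larger in preparation 1 (0.79) than in preparation 2 (0.47), and this difference was called on the arrays (adjusted p = 0.0144). Acot1, an acyl-CoA thioesterase, rose by 0.77 and 0.31. Cpt2, which re-forms acyl-CoA inside mitochondria, rose by 0.42 and 0.27, and Acaa1b, a peroxisomal thiolase, by 0.26 and 0.23. Pdk4, the kinase that shuts pyruvate dehydrogenase in fasting, rose by 0.52 and 0.57, from 8.36 to 8.71 and 8.36 to 8.62 with vehicle to 8.89 to 9.15 and 8.88 to 9.17 with 991.

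Secreted and storage proteins among the PPAR alpha targets rose too. Fgf21, the fasting hormone of the liver, read 7.55, 7.35, 7.17 and 7.29 with vehicle and 7.82, 7.75, 7.87, 7.95 and 7.86 with 991 in preparation 1. In preparation 2 it read 7.63, 7.77, 7.53, 7.52 and 7.63 with vehicle and 8.65, 8.85, 8.86, 8.64 and 8.94 with 991. The groups did not overlap, and the rise was larger in preparation 2 (1.17 against 0.51, limma adjusted p of the difference on the arrays = 0.000301). Angptl4, an inhibitor of lipoprotein lipase, rose by 0.24 and 0.14, and Plin2, the coat protein of lipid droplets, by 0.18 and 0.12. Over the settings run, the mean change of Angptl4 ranged from 0.09 to 0.24. Ppara itself changed by -0.09 and -0.24, the second called. Core enzymes of mitochondrial beta-oxidation stayed near 0, with mean changes of Acadm, Hadha and Hadhb between 0.01 and 0.07 and none called in both preparations. Promoter sequence was read from RefSeq windows of GRCm38.p6, each 300 bases around a gene's start. A direct repeat of 2 copies of AGGTCA with any 1 base between them, on either strand, was in the window of none of the 17 list members with a window, and in 0.0396% of all 32851 windows. Only 13 of all windows held it, so none was likely in 17 windows of any list. Its absence therefore tells nothing about these genes.

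Genes of the integrated stress response rose in both preparations in 9 of 26 cases and fell in none, against 0.731% and 0.643% of all genes. The list's median change was 0.11. Of its 26 members 19 were positive in both preparations and 4 negative in both, and 1 was called lower in preparation 2. Among the list's transcription factors, those that rose in both preparations were Atf4 (0.13 and 0.15), Atf3, a stress-induced repressor (0.34 and 0.56), and Ddit3 (CHOP, 0.50 and 0.47). Atf3 read 9.63 to 9.71 with vehicle and 9.82 to 10.10 with 991 in preparation 1, and 10.49 to 10.61 and 10.95 to 11.22 in preparation 2. Its vehicle level was 0.90 higher in preparation 2, more than the change with 991, and that of Ddit3 was 1.42 higher. Among their targets Chac1, which degrades glutathione, rose by 0.37 and 0.55, and its arrays did not overlap (10.53 to 10.83 against 11.01 to 11.11, and 10.99 to 11.07 against 11.46 to 11.67). Trib3, a pseudokinase that restrains ATF4, rose by 0.35 and 0.26, and Sesn2, an mTORC1 inhibitor, by 0.18 and 0.27. Slc7a1, a transporter of cationic amino acids, rose by 0.25 and 0.31, and Ppp1r15a (GADD34), which leads eIF2 alpha phosphatase, by 0.21 and 0.51. Fgf21 belongs to this list as well. Amino acid synthesis and charging enzymes did not pass: the mean change was 0.01 for Asns, 0.08 for Aars and -0.05 for the cystine transporter Slc7a11. In the fit to preparation means none of the 26 was called. The count of 9 was 7 without vehicle array 5 of preparation 1 and with the mean of all probe sets. Over the settings run, the mean change of Atf4 ranged from 0.06 to 0.15.

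In the same promoter windows the C/EBP-ATF response element, searched as TGATGNAA on both strands, was in 3.97% of all windows and in windows of 9 of the 24 list members that have one. Of those 9 genes 4 rose in both preparations (Fgf21, Chac1, Atf3 and Trib3), and of the other 15 genes 5 did. The stretches below are shown because they set members that rose beside members that did not, with the element in capitals and each gene's own strand read 5′ to 3′.
Chac1: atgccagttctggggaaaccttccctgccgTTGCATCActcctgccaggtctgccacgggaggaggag
Atf3: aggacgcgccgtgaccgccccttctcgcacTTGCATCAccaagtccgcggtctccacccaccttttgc
Fgf21: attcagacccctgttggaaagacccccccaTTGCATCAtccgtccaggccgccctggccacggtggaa
Nupr1: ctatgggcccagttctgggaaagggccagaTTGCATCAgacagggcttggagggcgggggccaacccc
Asns: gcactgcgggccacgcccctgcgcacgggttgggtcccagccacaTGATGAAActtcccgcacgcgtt
Slc7a11: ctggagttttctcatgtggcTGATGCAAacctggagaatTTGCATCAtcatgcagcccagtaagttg

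These lie at chr2:119351019-119351086 on the plus strand (Chac1), and on the minus strand at chr1:191183406-191183473 (Atf3), chr7:45615592-45615659 (Fgf21), chr7:126625543-126625610 (Nupr1), chr6:7693210-7693277 (Asns) and chr3:50443633-50443699 (Slc7a11). All 6 stretches are upstream of the start, and the element begins 193, 110, 139 and 110 bases before it in the first 4. Those 4 genes hold the same 8 letters, TTGCATCA, in the same orientation. Nupr1, a stress-induced chromatin protein, changed by 0.20 and 0.23 and was called in neither preparation, while it rose by 1.29 in WT. Asns holds other letters, and Slc7a11 holds the element in both orientations. A match is a description of sequence and not of binding. Ppp1r15a held a cAMP response element instead, the letters TGACGTCA, which are in 1.79% of windows (chr7:45526269-45526298, minus strand, shown with the element in capitals).
Ppp1r15a: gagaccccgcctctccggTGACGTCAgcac

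Some heat shock genes fell. Of 13 measured, 4 fell in both preparations, against 0.643% of all genes, and none rose in either. Of the 13, 12 were negative in both, as were 4598 of all 18193 genes, and the list's median was -0.14 against 0.01 for all genes. Hspa8, the constitutive HSP70, fell by 0.15 in preparation 1 and by 0.20 in preparation 2. Its co-chaperones Dnaja1 (-0.16 and -0.14) and Dnajb1 (-0.27 and -0.19) fell, and so did Chordc1, an HSP90 co-chaperone (-0.25 and -0.17). A second probe set of Dnaja1 gave -0.05 and -0.02. The stress-inducible HSP70 gene Hspa1b read 10.40, 10.50, 10.56 and 10.82 with vehicle and 10.19, 10.23, 10.37, 10.33 and 10.31 with 991 in preparation 1. In preparation 2 it read 11.34, 11.23, 11.26, 11.18 and 11.27 with vehicle and 10.83, 10.55, 10.72, 10.71 and 10.50 with 991. Its arrays with 991 were lower in both preparations, but the change of -0.28 in preparation 1 was not called (adjusted p = 0.0755), and that of -0.59 in preparation 2 was. Hspa1b and its neighbour Hspa1a are near-identical copies, so their probe sets may share signal.

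Chordc1 holds 3 overlapping matches to a heat shock element, searched on both strands as GAA, TTC and GAA with any 2 bases between neighbours, across its start. The element is in 0.603% of all windows and in windows of 4 of the 11 list members that have one, the others being Hsph1, Hspd1 and Hspe1. Of these, Hsph1 changed by -0.08 and -0.20, the second called, and Hspd1 and Hspe1 were called in neither preparation. The stretch at chr9:18292256-18292285 (GRCm38.p6, plus strand) is shown with the joined matches in capitals, from 4 bases before the start to base 19 after it.
Chordc1: gcaaccgGAACGTTCGGGAAAATTCCTGAA

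**Figure D3:**
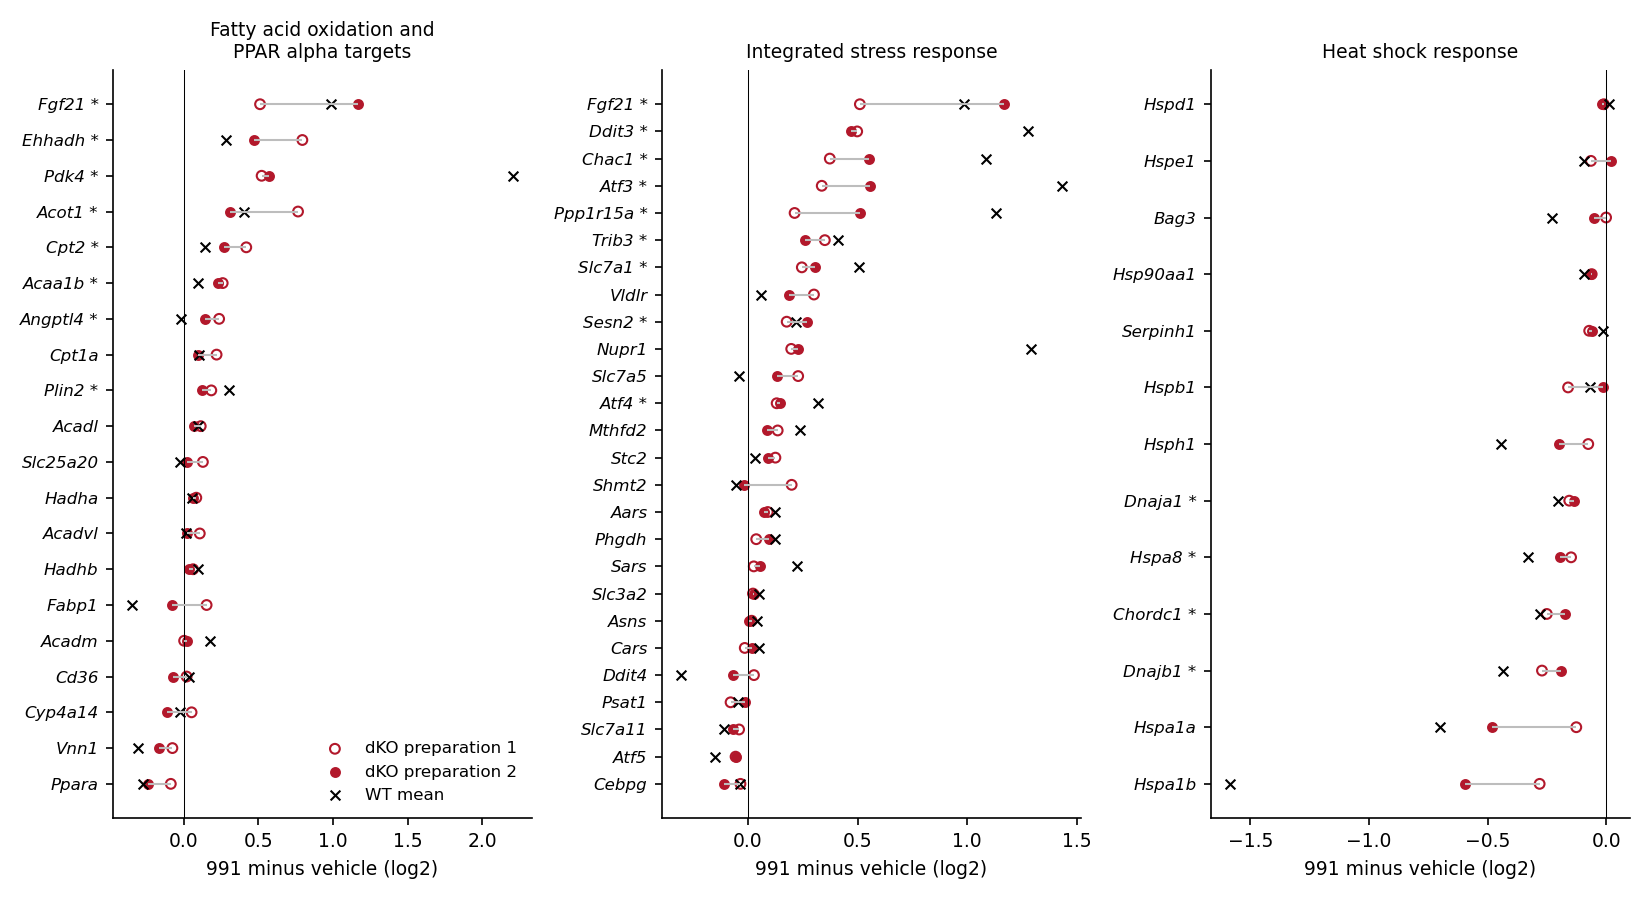
Log2 change with 991 for every measured member of 3 gene lists, as open circles for dKO preparation 1, filled circles for preparation 2 and crosses for the mean of the WT preparations; stars mark members called in both dKO preparations in the same direction. Stars stand on 8 PPAR alpha genes and 9 stress genes on the right of 0 and on 4 heat shock genes on the left.

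In the further lists 0 to 3 members were called in both preparations, to be read against 0.731% of all genes called higher and 0.643% called lower. Of 15 glucocorticoid responsive genes, Pdk4 rose in both preparations while Tsc22d3 and Zbtb16 (-0.20 and -0.35) fell. Of 14 insulin and FOXO responsive genes, Trib3 rose, and Cited2 and Pik3r1, the regulatory subunit of PI 3-kinase (-0.18 and -0.15), fell. The list's median was -0.09. Of 16 xenobiotic and nuclear receptors, Nr1i2 (the pregnane X receptor, 0.24 and 0.18) and Nr5a2 (0.16 and 0.16) rose, and Ahr, the aryl hydrocarbon receptor, fell by 0.20 in preparation 1 and by 0.33 in preparation 2. A further probe set gave -0.15 and -0.10 for Zbtb16 and 0.02 and 0.01 for Pik3r1. Over the settings run, the mean change of Ahr ranged from -0.33 to -0.14. Of 9 aryl hydrocarbon receptor targets Tiparp alone rose in both (0.22 and 0.14), and of 20 CAR and PXR targets none changed in both. Among immediate early genes 3 of 24 rose in both, Ier3 (0.39 and 0.38), Fosl1 (0.20 and 0.16) and Myc (0.14 and 0.21). Among 25 inflammation genes 3 chemokines rose, Cxcl2 (0.41 and 0.32), Ccl7 (0.24 and 0.22) and Ccl2 (0.22 and 0.15).

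In the NRF2 antioxidant list, Hmox1 (heme oxygenase) rose by 0.39 and 0.31, with arrays that overlapped in both preparations, and Gclc, the catalytic subunit of glutathione synthesis, changed by -0.10 and -0.11. Ern1 (IRE1, 0.32 and 0.33, but 0.19 and 0.05 on a further probe set) was the only one of 20 unfolded protein response genes to rise in both, and Gadd45a (0.28 and 0.36) and Sesn2 were the risers among 16 p53 targets. Among 14 genes of gluconeogenesis, 20 of cholesterol synthesis and uptake, 24 of mitochondrial biogenesis and respiration and 20 of hypoxia and glycolysis, none was called in both preparations in the same direction. The same held for 12 AMPK subunits and upstream kinases, 10 genes of the folliculin complex and its transcription factors and 29 lysosome and autophagy targets. Among cholesterol genes 4 fell in preparation 2 and none in preparation 1.

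For a few genes the change with 991 differed between the 2 preparations by more than technical spread. That test has 1 preparation on each side, and variation between cultures is not in it. The difference between preparations was called on the arrays for 11 genes (0.0605%). Of these, 4 were called in opposite directions (0.022%) and are named for that after their values were seen. Steap4, a metalloreductase of inflamed liver, read between 9.44 and 9.58 with vehicle and between 9.72 and 9.80 with 991 in preparation 1. In preparation 2 it read between 9.28 and 9.37 with vehicle and between 9.04 and 9.21 with 991. Hhex, a homeobox factor of the liver, changed by -0.29 and 0.18, Fga, the fibrinogen alpha chain, by 0.13 and -0.10, and Serpina3n by 0.09 and -0.08. The others were Fgf21 and Ehhadh, which rose in both, and Cyp7a1, Creld2, Tent5b, Cyp3a25 and Fgg, each called in 1 preparation. Between the vehicle arrays of the 2 preparations 267 genes differed by 1.5-fold or more, against 12 between 991 and vehicle within preparation 1 and 8 within preparation 2.

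The question that the WT cells answer is which of these changes are larger when AMPK is present. Of the 250 genes, 238 (95.2%) had the same sign in WT hepatocytes, against 65.6% of all genes, and 145 were called there in that direction. WT and dKO have vehicle arrays of their own, so the comparisons share no sample. The median WT change of these genes, in the dKO direction, was 0.32. For 160 of them the WT change was the larger. Read the other way, the 144 genes called in WT that differed there by 1.5-fold or more had a slope of 0.21 in dKO on WT, and 129 had the same sign. The difference between genotypes was called for 75 genes (0.412%), all of which had the larger change in WT. That count was 11 to 25 when any 1 preparation of either genotype was left out. Of the 75, 10 are among the 250.

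For these 10 genes the dKO change, called on arrays, was smaller than that in WT or of opposite sign. On preparation means only Cited2 of them was called in dKO. Hilpda rose by 1.69 in WT and 0.58 in dKO (adjusted p of the difference = 0.0170). Cited2 fell by 1.06 and 0.58 (0.0404), Sox4 by 0.99 and 0.41 (0.0372), Ahr by 0.97 and 0.27 (0.0282), and Amotl2, a YAP-binding protein, by 0.85 and 0.28 (0.0106). Grpel2, a mitochondrial co-chaperone, rose by 1.30 and 0.25 (0.0106). Nat8f4, Slc20a1 and Ajuba complete those with a shared sign. Tsc22d1, a TGF-beta stimulated factor, rose by 0.31 and 0.41 in the dKO preparations and changed by -0.41 in WT (0.0118).

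The other 65 were not called in both dKO preparations, and the folliculin gene is among them. Flcn, a tumour suppressor that controls TFEB and TFE3, rose by 0.94 in WT, while in dKO its arrays overlapped (8.68 to 8.94 with vehicle and 8.78 to 8.91 with 991 in preparation 1, and 8.75 to 8.99 and 8.75 to 9.02 in preparation 2) and it changed by 0.06 and 0.02. The difference was called (adjusted p = 0.0126). Its partner Fnip2 (0.78 in WT and 0.09 in dKO) and the lysosomal ATPase subunit Atp6v1b2 (0.73 and 0.09) had called differences too, as had Zfp385b (1.33 and 0.03), Rab30 (1.59 and 0.13), Snai2 (1.39 and 0.20), Nupr1 (1.29 and 0.21) and Lce1d (1.83 and 0.01). Of these Snai2 was called in dKO preparation 2 (0.27), and Lce1d lay at 4.22 over the hepatocyte arrays, below the median level. The Rab30 difference was lost without dKO preparation 1 (adjusted p = 0.0682) or 2 (0.0677), without an intensity trend (0.0520) and with the mean of all probe sets (0.0685). That of Snai2 was lost without dKO preparation 1 (0.0682) and with the mean of all probe sets (0.0923), and that of Hilpda without a trend (0.0501). Without the preparation block those of Rab30, Zfp385b, Snai2, Hilpda, Nupr1 and Grpel2 were all lost. Over all genes 3 differences were called without the block. Gene by gene, only the differences of these genes, Lce1d and G6pc were re-tested, and not without a WT preparation. Those of Flcn, Fnip2, Atp6v1b2, Cited2, Sox4, Ahr, Amotl2 and Tsc22d1 were not re-tested, so their dependence on the settings is not known. G6pc, the glucose-releasing phosphatase of gluconeogenesis, changed by -1.54 in WT and by 0.51 and 0.21 in the dKO preparations, the first called on arrays. Its difference of -1.90 was the largest called (adjusted p = 0.0404), and it missed the threshold under quantile normalization (0.0565) and in 7 further settings.

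By contrast, several of the largest dKO changes had about the same size in WT, and no difference was called for them. Rgs1 rose by 1.14 in WT and 1.15 in dKO, a difference of -0.01 ± 0.22 (SE). Fgf21 rose by 0.98 and 0.84 (difference 0.15 ± 0.27), Klf10 by 0.84 and 0.65 (0.18), Abca1 by 0.49 and 0.47 (0.02) and Slc25a47 by 0.50 and 0.57 (-0.07). A missed threshold does not show that they were alike. Ehhadh was 0.29 in WT, where it was not called, and 0.63 in dKO (difference -0.35 ± 0.12, adjusted p = 0.454). G0s2 was 0.06 in WT and 0.57 in dKO (adjusted p = 0.414). Some stress genes rose more in WT than in dKO, although no difference was called for them. Atf3 rose by 1.43, Ddit3 by 1.28, Chac1 by 1.08 and Ppp1r15a by 1.13 in WT. In dKO the larger rise of the 2 preparations was 0.56 for Atf3, 0.50 for Ddit3, 0.55 for Chac1 and 0.51 for Ppp1r15a. Pdk4 rose by 2.21 in WT against 0.55 in dKO, and this difference was not called either (adjusted p = 0.0866).

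The gene lists in WT, by the fit to preparation means, gave 5 rises and 1 fall among the 20 fatty acid oxidation and PPAR alpha genes, 8 rises and 1 fall among the 26 stress genes, and 5 falls and no rise among the 13 heat shock genes, against rises of 3.72% and falls of 2.36% of all genes. In dKO that fit called none of these. Of the 10 folliculin complex genes 4 rose in WT, with a list median of 0.30 against 0.04 in dKO, and 3 of them had a called difference between genotypes. Of the 29 lysosome and autophagy targets 11 rose in WT, with a median of 0.11 against 0.02 in dKO, and 2 had a called difference. Of all genes 3.72% rose in WT and 0.412% had a called difference. All genes had a median of 0.03 in WT and 0.01 in dKO.

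**Figure D4:**
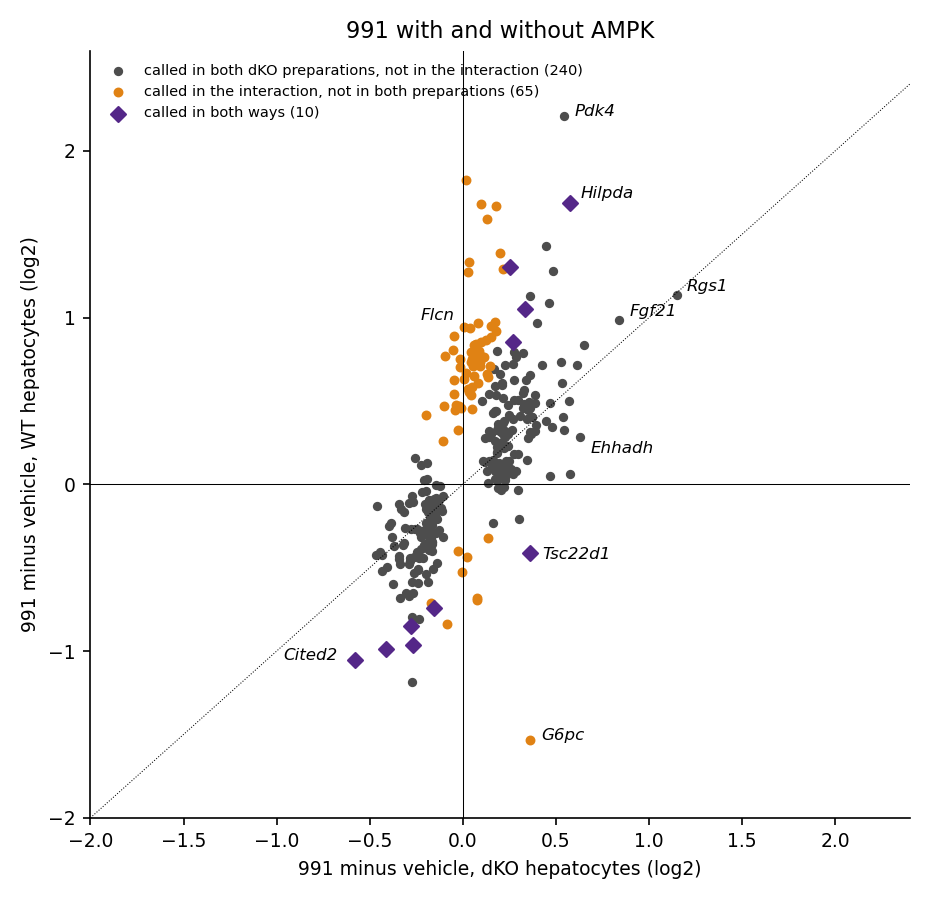
Log2 change with 991 in dKO hepatocytes on the x axis and in WT hepatocytes on the y axis, as means over 2 preparations, for 240 genes called in both dKO preparations but not in the difference between genotypes (grey), 65 called in that difference alone (orange) and 10 called in both ways (purple). The dotted line marks equal change; Rgs1 lies on it, while Hilpda, Pdk4 and Flcn lie above it and G6pc below 0 in WT.

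In dKO MEFs, where 991 was given at 10 µM, 629 genes were called on the arrays (3.46%), which the labels give as technical replicates. Of the 250 hepatocyte genes 139 had the same sign there, against 52.3% of all genes. Of them 16 were called in the same direction and 10 in the opposite. The median MEF change of the 250 genes, in the hepatocyte direction, was 0.0095. Sox4 (-0.29), Cited2 (-0.11) and Klf5 (-0.21) fell in MEFs as well, while Rgs1 was 0.10, Fgf21 0.18, Ehhadh 0.14 and Hilpda -0.11, none of them called. Tsc22d1, which rose in dKO hepatocytes, was called in the opposite direction in MEFs (-0.12). Doses and cell types differ, and the probe set of a gene can differ too, so these values only stand side by side.

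AICAR at 300 µM in dKO hepatocytes was compared with the same vehicle arrays as 991, and 3234 genes were called on preparation means (17.8%). Slc25a47 rose by 0.88 with AICAR and was 0.57 with 991, Fgf21 by 0.84 and was 0.84, and Pdk4 by 1.58 and was 0.55. Cited2 changed by -0.34 with AICAR, called, against -0.58 with 991. Other leading genes differed in sign or size: Ddit3 fell by 2.33 with AICAR and was 0.49 with 991, Ier3 fell by 1.60 and was 0.39, and Rgs1 was -0.07 and Hilpda 0.09 with AICAR, neither called.

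The arrays carried hepatocyte markers at high levels in every group. The mean level of 15 hepatocyte markers was 12.81 with vehicle and 12.88 with 991 in preparation 1, and 12.98 and 12.97 in preparation 2. None was called in both preparations, though Hnf4a (0.22), Hpd (0.20), Ahsg, Fgb and Tdo2 were called higher in preparation 1 only. Of 15 Kupffer cell and macrophage markers Lyz2 alone fell in both (-0.26 and -0.29), 5 were positive in both and 7 negative in both. Their mean level was 8.14 with vehicle and 8.14 with 991 in preparation 1, and 7.86 and 7.81 in preparation 2, and 13 of the 15 lay at or above the median level of all genes. The part of these cells in the changes above was not tested. None of 14 endothelial, 14 stellate, 7 cholangiocyte or 9 lymphocyte and erythroid markers was called in either preparation. In bulk RNA fewer cells of a type and less RNA per cell cannot be told apart.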

How the data were processed

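The authors deposited log2 intensities per probe set, made with RMA and Partek per the submitters' processing notes (versions not given in the sources used here). Of 45101 probe sets, 64 controls were left out; 34945 have 1 gene symbol, 932 several and 9160 none in the annotation used. They represent 18193 genes, each by its brightest probe set over the hepatocyte arrays (9010 genes have several). MEF values used the brightest probe set over the MEF arrays instead, which can be another one. No filter on dim genes was applied. Precision is limited by how many arrays and preparations there are.

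Technical replicates were averaged to 12 hepatocyte preparation means and fitted in R 4.3.3 by limma 3.58.1, using lmFit and eBayes with an intensity trend, with preparation within genotype as a block and 4 residual degrees of freedom. Each SE given is the moderated SE of this fit, with spread estimated from all 12 means. A second fit took the 59 hepatocyte arrays with a mean for each treatment and preparation (47 degrees of freedom), within which preparations were compared. P-values were adjusted by Benjamini-Hochberg over all genes. On simulated data the fit to preparation means returned, on average, the size of the changes put in. That average does not show how many of them would be called. Where cultures of a preparation were simulated to vary, the fit to arrays also called unchanged genes in both preparations, so its calls do not account for that variation. Vehicle and 991 arrays of the same preparation deviated together (r = 0.85 across genes for the difference between preparations), and the labels give preparations as biological replicates. Technical replicate numbers did not pair arrays (median r = -0.0036 over 9 pairs of dKO arrays).

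Members, gene lists and the rule for named genes were chosen with earlier results of these data known. The rule names Flcn, Prkaa1 and Prkaa2, and in each direction the 10 genes with the largest change at or above the median level with 1 sign in both preparations (filled by the smaller of the 2 changes where not called), up to 4 called or 2 uncalled members per list, and the 8 largest called differences between genotypes. Other members of the PPAR alpha, stress and heat shock lists and other genes named as examples were chosen after their values were seen. Promoter windows came from RefSeq (GRCm38.p6). Python 3.11.15, pandas 2.3.3 and matplotlib 3.10.9 were used. Alternatives are given in the closing section.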

Additional observations from a re-analysis of the deposited data

Results flagged for a closer look

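Single arrays lay apart from the others of their treatment and preparation in 7 of 100 sets of dKO arrays tested by Dixon's criterion, where chance gives about 1 in 20. Vehicle array 5 of preparation 1 had the highest median (6.330), the lowest Ddit3 (9.88) and the highest Steap4 (9.58). Vehicle array 3 of that preparation had the highest Atf3 (9.71) and vehicle array 2 the lowest Ehhadh (9.95). In preparation 2, array 5 with 991 had the lowest Slc25a47 (11.87). Array 5 with 991 in preparation 1 had the lowest correlation with the rest of its set (0.99873).

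The effect of 991 in WT minus that in dKO was called in limma for named genes with a larger rise in WT, namely Lce1d (1.81), Rab30 (1.46), Zfp385b (1.30), Snai2 (1.19), Hilpda (1.11), Nupr1 (1.08), Grpel2 (1.05), Flcn (0.90), Fnip2 (0.68) and Atp6v1b2 (0.64). It was negative for G6pc (-1.90), Ahr (-0.70), Sox4 (-0.58) and Cited2 (-0.47).

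The effect in dKO preparation 2 minus that in preparation 1 was called on arrays for Fgf21 (0.66), Tent5b (0.54), Hhex (0.47) and Creld2 (0.46), and for Cyp7a1 (-0.56), Steap4 (-0.48), Ehhadh (-0.33), Cyp3a25 (-0.23), Fga (-0.22), Fgg (-0.20) and Serpina3n (-0.17). These tests use technical spread, and 1 preparation stands on each side.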

How the results depend on the processing

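The count of genes called for 991 in dKO hepatocytes, 1 on preparation means, was 0 with genes below the median level left out, without an intensity trend, without the preparation block and on the dKO means alone, 3 with medians of technical replicates, 45 on the means with 991 and vehicle, 781 on the 4 dKO means and 783 with every array as a sample and preparation as a replicate block. It was 0 to 4 when a preparation or an array was left out. The 75 differences between genotypes became 39 with the mean of all probe sets, 31 without a trend, 3 without the block, 2111 with every array, and 11 to 25 without a preparation. The 1105 WT calls became 166 without the block, 5765 with every array and 117 to 537 without a preparation. The 250 genes called in both preparations ranged from 193 to 328 over all settings, and with an array left out the 603 calls of preparation 1 were 449 to 571 and the 566 of preparation 2 were 399 to 523. With the technical replicate number as a replicate block these were 252, 584 and 582. The 11 differences between preparations became 38 with quantile normalization and 7 without a trend. The correlation of preparations, 0.41, was 0.39 with quantile normalization, 0.61 at or above the median level, 0.4090 with mean probe sets and 0.35 with medians. Of the list counts, fatty acid oxidation gave 7 to 8, the stress response 7 to 9 and heat shock 3 to 5.

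Of 123 named genes, these changed sign in a setting. Quantile normalization gave -0.0133 for Lce1d, -0.0302 for Prkaa1, 0.0087 for Prkaa2 and -0.0013 for Serpina3n, mean probe sets gave -0.0009 for Asns and -0.0019 for Pdgfra, and medians gave -0.0255 for Lce1d, -0.0206 for Prkaa1, 0.0123 for Prkaa2 and -0.0004 for Fga. With a preparation or array left out, the ranges were -0.0281 to 0.0663 for Lce1d, -0.028 to 0.0329 for Prkaa1, -0.0187 to 0.0126 for Prkaa2, -0.08 to 0.0941 for Serpina3n, -0.10 to 0.13 for Fga, -0.0304 to 0.17 for Fgg, -0.29 to 0.18 for Hhex, -0.19 to 0.28 for Steap4, -0.0763 to 0.39 for Creld2, -0.14 to 0.0904 for Cyp3a25 and -0.49 to 0.0742 for Cyp7a1. The causes were not tested. The median SE on preparation means was 0.066, with 2 preparations.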

Other observations

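Across genes, the difference between vehicle preparations 1 and 2 in dKO cells correlated with the difference between the equally numbered WT preparations at r = -0.77, a value that describes 4 means. Nothing in the labels says that equal numbers mark a shared day or animal.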
